A study of Mus musculus with 5 samples.

Results

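Cycling and non-cycling tumor cells that grew side by side in a non-invasive matrix were compared within the same plates. MMTV-PyMT organoids derive from mouse mammary carcinomas driven by polyoma middle T under the MMTV promoter, which is active in mammary epithelium, and these had spent 5 days in BME, the basement membrane gel for which the labels record no invasion. Single live cells were sorted into 384-well plates for SORT-seq, which tags each captured mRNA molecule with a unique molecular identifier (UMI). The series analysed here holds 3 BME plates and 2 plates of organoids kept for 5 days in Collagen I, a fibrillar and invasion-permissive matrix. All plates derive from a single organoid model that was first expanded in BME, no source says that the plates came from separate cultures, and p-values therefore measure the spread between plates.

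Wells were kept when they held over 2000 estimated transcript counts and fewer than 8000 genes. Each well was scored by the summed counts of Mki67, Top2a, Cdk1, Ccnb1, Birc5 and Ube2c per 10000 counts of the well, and the classes were chosen by this score alone. Cycling wells had a score of at least 6, non-cycling wells a score under 2, and the wells in between are called intermediate. Of the 810 BME wells kept, 375 were cycling (141, 113 and 121 in replicates 1 to 3), 205 were intermediate (66, 74 and 65) and 230 were non-cycling (79, 72 and 79), out of 1255 wells kept in the 5 plates. The limit of 8000 genes had removed 37 BME wells with over 2000 counts, of which 31 had a cycling score. The 384 well barcodes are the same in every plate by design, so a shared barcode does not mark a shared cell. For each plate the counts of the cycling and of the non-cycling wells were summed. The cycling sums held 5018761, 4166449 and 4897295 counts, against 1786009, 1943721 and 2444608 counts in the non-cycling sums, and levels are given as CPM, counts scaled to one common total after TMM correction.

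A cell that has committed to division passes through S phase, in which licensed replication origins fire and the genome is copied, and through G2 into mitosis, in which the spindle separates the chromosomes. Genes for replication are switched on by E2F factors at the end of G1, whereas most mitotic genes are held off in resting cells by the DREAM complex and switched on later by B-Myb and FoxM1. Cells outside the cycle carry little mRNA of both kinds, and growth arrest is accompanied by p53 and FoxO target genes in many cell types.

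The promoters of mitotic genes carry known sequence elements, shown here because the genes with the highest ratios between the classes were mitotic genes. The windows are the 120 bases before the RefSeq start of transcription of 4 genes of the spindle and of mitotic exit, picked because their windows hold both CCAAT and TTTGAA, and, for contrast, of the replication helicase subunit Mcm6. Capitals mark CCAAT, the box bound by NF-Y, TTTGAA, the cell cycle genes homology region (CHR) read by DREAM and B-Myb complexes, and TTTGGCGC, an E2F site, each on either strand.
Cdc20: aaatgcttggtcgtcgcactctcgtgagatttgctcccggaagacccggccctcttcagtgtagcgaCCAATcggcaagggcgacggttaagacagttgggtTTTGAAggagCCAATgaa
Kif11: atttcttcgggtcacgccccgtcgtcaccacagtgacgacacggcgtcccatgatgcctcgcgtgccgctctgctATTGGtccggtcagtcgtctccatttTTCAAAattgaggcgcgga
Kif22: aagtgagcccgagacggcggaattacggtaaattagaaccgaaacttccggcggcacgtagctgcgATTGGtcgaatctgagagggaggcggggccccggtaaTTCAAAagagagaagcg
Ckap2l: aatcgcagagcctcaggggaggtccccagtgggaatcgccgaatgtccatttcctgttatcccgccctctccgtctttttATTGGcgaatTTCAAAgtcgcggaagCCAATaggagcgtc
Mcm6: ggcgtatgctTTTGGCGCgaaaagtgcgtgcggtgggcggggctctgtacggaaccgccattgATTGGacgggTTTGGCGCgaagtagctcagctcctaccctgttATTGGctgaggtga
The windows are on GRCm38.p6 at chr4:118437344-118437463 (minus strand) for Cdc20, chr19:37376262-37376381 (plus strand) for Kif11, chr7:127042421-127042540 (minus strand) for Kif22, chr2:129297213-129297332 (minus strand) for Ckap2l and chr1:128359706-128359825 (minus strand) for Mcm6, each directly upstream of the RefSeq start. The GENCODE starts of Cdc20 and Kif22 lie inside their windows. In Kif11 and Kif22 a CHR starts 19 and 17 bases before the RefSeq start, with a CCAAT box further upstream.

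Over the 250 bases before the start, CCAAT was found in 33.8% and TTTGAA in 16% of all 32851 RefSeq promoter windows, both strands read. Among the genes of the spindle, kinesin and cytokinesis list, 29 of 33 tested genes matched a RefSeq symbol, and of their 32 windows 68.8% held CCAAT and 50% held TTTGAA. Both elements stood in 37.5% of these windows, against 5.55% of all windows and 3.79% of the windows of all genes tested. In the 26 windows of mitotic cyclin, kinase and checkpoint genes CCAAT stood in 76.9%, TTTGAA in 26.9% and both in 26.9%, and in the 27 windows of centromere and kinetochore genes they stood in 70.4%, 14.8% and 11.1%. Of the 55 windows of 45 matched replication genes, 56.4% held CCAAT and 14.5% held TTTGAA, and the E2F sites TTTGGCGC or TTTCCCGC were found in 12.7%, against 2.62% of the windows of all genes tested and 1.3% of all windows. These E2F sites were not particular to replication genes. They stood in 9.38% of spindle, 11.1% of centromere, 12.8% of condensin, cohesin and chromatin protein and 15% of G1 cyclin list windows. In windows of mitotic cyclin, kinase and checkpoint genes they stood in 0%. TTTGGCGC alone stood in 9.38% of spindle and 7.27% of replication windows. Antigen presentation and interferon genes held these E2F sites in 14.3% of 21 windows. Genes that were higher in cycling cells by the test below had CCAAT in 42.7% of their 2108 windows, genes that were lower had it in 32% of theirs, and all genes tested in 35.5% of 10064 windows. CCAAT was as frequent in growth arrest genes, in 67.7% of 31 windows, and in cholesterol synthesis genes, in 78.9% of 19 windows, whereas TTTGAA stood in 6.45% and 5.26% of these. A match in these letters describes the sequence and is no measurement of binding.

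The score itself spread over a wide range. Its median was 15.8 counts per 10000 in cycling wells, 3.21 in intermediate wells and 1.04 in non-cycling wells, of which 39 held no count of any score gene. Beside the upper threshold lay wells at 6.01, 6.10 and 6.13 on the cycling side and at 5.95, 5.95 and 5.94 on the intermediate side, and beside the lower threshold wells at 2.00 and 2.00 on the intermediate side and at 1.99 and 1.99 on the non-cycling side. There was thus no gap at either threshold. All 6 score genes were detected together in 271 of 375 cycling, 23 of 205 intermediate and 1 of 230 non-cycling wells.

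**Figure D1:**
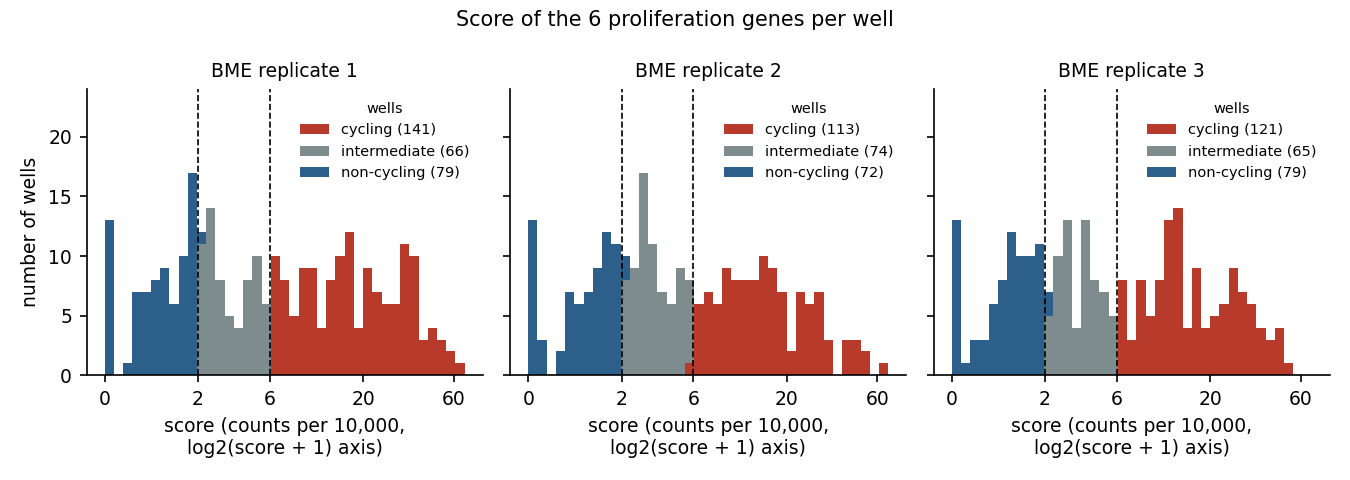
Number of wells (vertical axis) by the score of the 6 proliferation genes, in counts per 10000 on a log2(score + 1) axis, in each BME plate. Red, grey and blue stacks are cycling, intermediate and non-cycling wells with their numbers, and dashed lines mark the thresholds of 2 and 6, at which no gap is seen.

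The 6 score genes chose the wells, so their levels are a description. Mki67, a chromosome surface protein used as a proliferation marker, had 445, 316 and 378 CPM in the cycling sums, against 17.7, 18.4 and 18.1 CPM in the non-cycling sums. Top2a, the topoisomerase that untangles replicated DNA, stood at 458, 316 and 387 CPM in cycling and 18.9, 18.4 and 15.6 CPM in non-cycling sums. The mitotic kinase Cdk1 stood at 378, 267 and 288 CPM in cycling and 31.5, 19.9 and 23.8 CPM in non-cycling sums, and its partner cyclin B1, Ccnb1, at 251, 207 and 214 CPM in cycling and 5.72, 7.95 and 8.63 CPM in non-cycling sums. Birc5, the survivin subunit of the chromosomal passenger complex, had 387, 369 and 399 CPM in cycling and 19.5, 17.4 and 25.1 CPM in non-cycling sums. Ube2c, the ubiquitin-conjugating enzyme of the anaphase-promoting complex, had 401, 326 and 347 CPM in cycling and 18.3, 18.4 and 17.3 CPM in non-cycling sums. Single wells of the non-cycling class were not free of these messages: Cdk1 was detected in 41% ± 10.1 (SD, n = 3 plates) and Ccnb1 in 18% ± 4.86 of them, against 88.7% ± 1.74 and 88.6% ± 2.77 of the cycling wells, which were also deeper (median 36354 ± 3849 against 24701 ± 4705 counts per well). How much of the detection in non-cycling wells came from free RNA was not tested.

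By these thresholds 49.3% (exact binomial 95% interval 43.4 to 55.3%), 43.6% (37.5 to 49.9%) and 45.7% (39.6 to 51.9%) of the wells in replicates 1 to 3 were cycling, and the intervals cover counting error only. In the Collagen I plates, scored in the same way, the cycling share was 18.5% (13.8 to 24.1%) and 21.1% (15.8 to 27.2%). These plates were shallower, with 1631975 and 1091407 counts before wells were kept, against 9077557, 9335848 and 10911711 in BME. In a well of few counts the score rests on few molecules, and what depth did to the shares was not tested. The plates of each matrix carry library names of their own, so the matrix and the set of libraries cannot be told apart, and the shares follow from the thresholds, so no test was made.

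Cycling wells held more transcript counts. The median cycling well had 32983, 35530 and 40548 counts in replicates 1 to 3, against 19298, 26906 and 27899 counts in the median non-cycling well, a ratio of 1.49. Genes per well were 5657, 6051 and 6095 in cycling wells and 4488, 5172 and 5241 in non-cycling wells. Set against the ERCC spike-ins, synthetic RNAs added in equal amount to each well, the cycling wells held 49.4, 49.2 and 54.6 counts per ERCC count, against 33.8, 28.2 and 39.1 in non-cycling wells, a ratio of 1.53. Every plate showed the same direction in all 3 measures, with an exact two-sided permutation p of 0.25 over the 3 plate pairs, the smallest that this design allows. Intermediate wells held the fewest counts in every plate, 15511, 19600 and 25213. They held 24.3, 28.8 and 31.5 counts per ERCC count, below the non-cycling wells in replicates 1 and 3 and slightly above them in replicate 2.

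**Figure D2:**
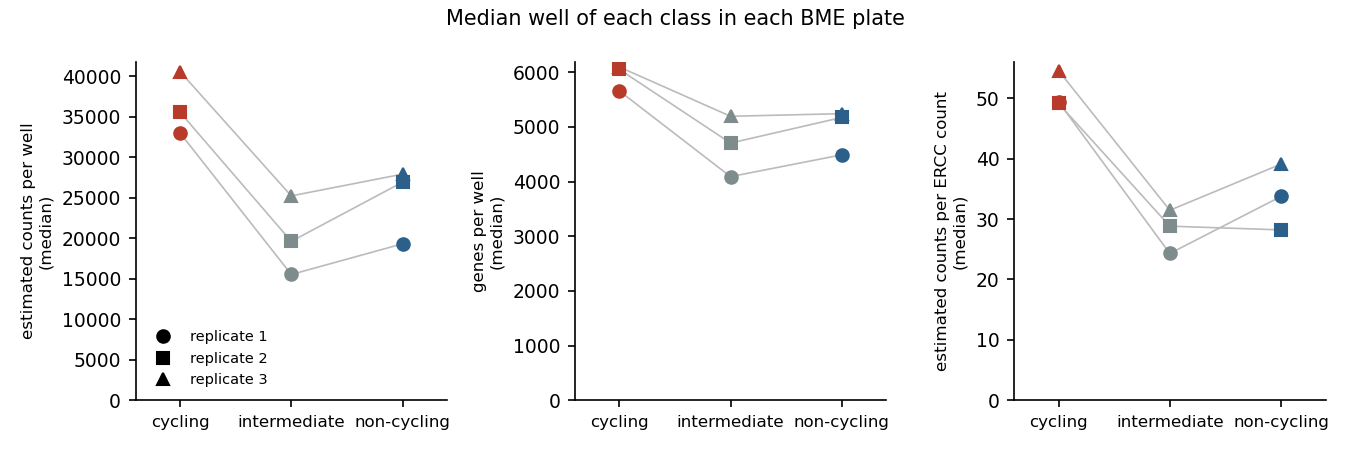
Medians over the wells of a class (horizontal axis: cycling, intermediate, non-cycling) of counts per well, genes per well and counts per ERCC count (vertical axes), with a symbol for each BME plate and lines joining the classes of a plate. Cycling wells are highest in all 3 plates, and intermediate wells are lowest in counts per well in every plate.

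A given CPM therefore stood for more molecules in a cycling than in a non-cycling well. When the sums were scaled by ERCC counts and not by their own total, the median gene moved to a log2 fold change of 0.54, from -0.02 with CPM, and changes below are given on the CPM scale, that is, relative to the bulk of the transcriptome.

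The cycling and non-cycling sums differed across a large part of the transcriptome. Of 10470 genes tested with edgeR's quasi-likelihood test with the plate as a block, the 6 score genes left out, 2297 (21.9%) were higher and 2136 (20.4%) were lower in cycling cells at an adjusted p under 0.05. The 3 cycling sums lay above all 3 non-cycling sums for 2271 genes (21.7%) and below them for 2152 genes (20.6%). Without the plate as a block 1505 genes (14.4%) were higher and 1290 (12.3%) lower, with DESeq2 1338 (13%) and 978 (9.53%), and without replicate 1 1630 (15.5%) and 1245 (11.8%). Among basal wells alone, defined below, 858 of 7612 genes (11.3%) were higher and 720 (9.46%) lower, and among non-basal wells alone 2066 of 10116 (20.4%) and 1868 (18.5%). Per ERCC count 6061 of 10473 genes (57.9%) were higher and 395 (3.77%) lower, the shares against which counts per ERCC count of the lists below are to be read. List counts by CPM are to be read against the 21.9% higher and 20.4% lower of all genes. When the counts of each well were split at random, so that the score and the sums came from different molecules, 1611 genes were higher and 1619 lower, and 1566 and 1461 of these were among those above.

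Among genes of at least 50 CPM in a class, the 15 with the highest ratios were genes of mitosis and of G2. Shcbp1, a midbody protein, had 48.6, 66.6 and 58.5 CPM in the cycling sums, against 1.14, 0.994 and 1.23 CPM in the non-cycling sums (log2 fold change 5.64 ± 0.25, adjusted p = 6.04e-10), and the non-cycling sums held only 7 of its counts in all. The cyclin Ccna2, which acts in S phase and G2, had 224, 218 and 225 CPM in cycling and 1.14, 6.96 and 6.16 CPM in non-cycling sums (log2 fold change 5.47 ± 0.20, adjusted p = 1.03e-10). Its non-cycling value in replicate 1 was lower than in the other plates. The spindle checkpoint gene Bub1b had 55.9, 54.1 and 53.1 CPM in cycling and 0.572, 0.497 and 2.47 CPM in non-cycling sums, a log2 fold change of 5.36 ± 0.29, and Bub1 one of 4.75 ± 0.26. Polo-like kinase Plk1, which drives mitotic entry, stood at 169, 112 and 121 CPM in cycling and 4.58, 5.47 and 3.29 CPM in non-cycling sums (log2 fold change 4.90 ± 0.17, adjusted p = 7.79e-11). Aurora kinase B of the chromosomal passenger complex, Aurkb, had 90.9, 77.9 and 82.2 CPM in cycling and 1.72, 2.98 and 2.47 CPM in non-cycling sums, and Aurora A of the spindle poles, Aurka, 71.9, 54.4 and 79.3 CPM in cycling and 1.72, 0.994 and 4.52 CPM in non-cycling sums. Cdc20, the activator of the anaphase-promoting complex whose promoter is shown above, had 104, 132 and 123 CPM in the cycling sums, against 3.43, 4.97 and 5.34 CPM in the non-cycling sums (log2 fold change 4.68 ± 0.16, adjusted p = 6.96e-11). No plate of the classes overlapped for any of these genes.

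Motors and spindle proteins followed the same pattern. Kif11, the motor that pushes the spindle poles apart, had 83.4, 65.6 and 71.9 CPM in the cycling sums, against 4.01, 1.99 and 2.88 CPM in the non-cycling sums, a log2 fold change of 4.64 ± 0.20. The chromosome motor Kif22 had 44.1, 62.6 and 64.7 CPM in cycling and 0, 2.49 and 3.7 CPM in non-cycling sums, and none of its counts lay in the non-cycling sum of replicate 1. Ckap2l, a spindle-associated protein, had 70.7, 68.7 and 82.2 CPM in cycling and 2.86, 2.49 and 3.29 CPM in non-cycling sums. Kif20a, Cep55, Pbk and Fam64a completed the list with log2 fold changes of 4.88, 4.63, 5.45 and 5.60. Cep55 is the abscission factor of the midbody. In the non-cycling sums these 4 genes held between 7 and 19 counts over the 3 plates, so the size of their ratio rests on few molecules. The same limit holds for Bub1b (8 counts), Bub1 (13), Kif22 (14), Aurkb (15), Aurka (16), Kif11 (18) and Ckap2l (18).

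Every member of the mitotic lists that could be tested was higher in cycling cells. This held for 32 of 32 mitotic cyclins, kinases and checkpoint genes (35 listed), 33 of 33 spindle, kinesin and cytokinesis genes (34 listed) and 32 of 32 centromere and kinetochore genes (34 listed), with median log2 fold changes of 3.75, 4.03 and 3.38. The score genes are mitotic genes of the same wells, so the direction of genes that act with them carries the choice of wells. Abundant members had smaller ratios. Cks2, a small subunit of cyclin-dependent kinases, had 304, 257 and 253 CPM in cycling and 44.1, 37.8 and 36.2 CPM in non-cycling sums (2.79 on the log2 scale), Cks1b 276, 202 and 236 CPM in cycling and 68.7, 50.2 and 57.5 CPM in non-cycling sums (2.02), and the anaphase ubiquitin enzyme Ube2s 159.5, 327 and 266 CPM in cycling and 42.4, 89 and 60.4 CPM in non-cycling sums (1.98). The checkpoint protein Bub3, which is also used outside mitosis, differed least of the members named, at 208, 174 and 161 CPM in cycling and 106, 78 and 77.7 CPM in non-cycling sums (log2 fold change 1.06 ± 0.09, adjusted p = 3.59e-07).

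The spindle regulators Kpna2, Racgap1, Tpx2 and Tacc3 had log2 fold changes of 2.52, 3.88, 3.62 and 3.60. Tpx2, which targets Aurora A to the spindle, had 215, 157 and 194 CPM in cycling and 14.3, 16.4 and 14.8 CPM in non-cycling sums. Racgap1, part of the complex that sets the cleavage plane, had 249, 176 and 198 CPM in cycling and 14.9, 12.4 and 14.4 CPM in non-cycling sums. At the centromere Cenpa, the histone H3 variant that marks it, had 333, 244 and 250.2 CPM in the cycling sums, against 20.6, 22.9 and 18.5 CPM in the non-cycling sums (log2 fold change 3.72 ± 0.12, adjusted p = 5.23e-11). Cdca8, Cenpf and Cenpw had log2 fold changes of 4.25, 4.19 and 2.31. Tubulin and stathmin genes, the material of microtubules, were higher in 10 of 10 tested (12 listed). Tuba1b had 2296, 1957 and 2229.7 CPM in the cycling sums, against 382, 388 and 469 CPM in the non-cycling sums, and Tubb4b 408, 467 and 538 CPM in cycling and 69.2, 86 and 98.6 CPM in non-cycling sums. Tubb5 and Tuba1c had log2 fold changes of 1.69 and 1.50, and reads of such near-identical tubulins can be split between copies by the counting.

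**Figure D3:**
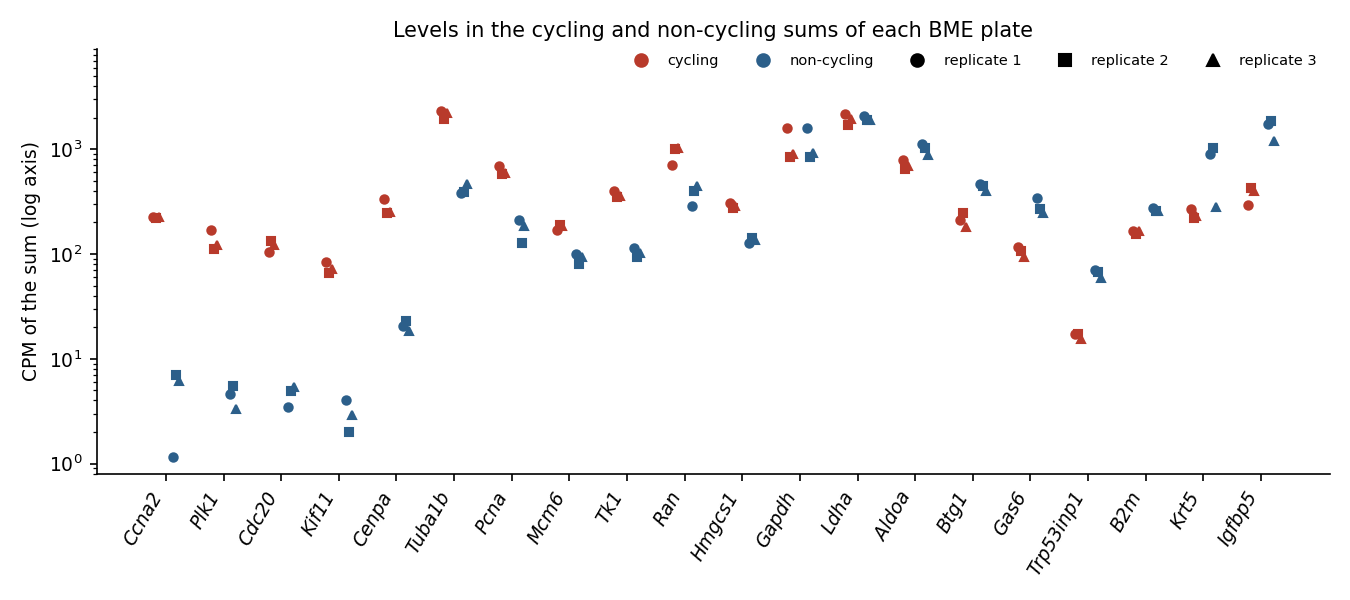
CPM (log axis) of 20 genes in the cycling sums (red, left of each pair) and the non-cycling sums (blue, right of each pair) of the 3 BME plates, with a symbol for each plate. Mitotic genes on the left differ most, Gapdh and Ldha overlap, and growth arrest and basal genes on the right are lower in the cycling sums.

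Replication genes were higher as a group, at smaller ratios. All 55 members of the licensing and fork list were tested and 55 were higher, with a median log2 fold change of 1.71. Cell cycle genes chose the wells, so the direction of this list and of the repair and nucleotide lists below also carries that choice. Pcna, the sliding clamp of DNA polymerases, had 689, 584 and 596 CPM in the cycling sums, against 213, 126 and 184 CPM in the non-cycling sums (log2 fold change 1.85 ± 0.10, adjusted p = 4.34e-09). The helicase subunit Mcm7 had 269, 231 and 225 CPM in cycling and 82.4, 76 and 69 CPM in non-cycling sums (1.67 on the log2 scale). Mcm6, whose promoter window holds the E2F site 2 times, had 169, 189 and 185 CPM in cycling and 101, 80.5 and 93.7 CPM in non-cycling sums (log2 fold change 0.99 ± 0.10, adjusted p = 2.45e-06). Dnmt1, which copies DNA methylation behind the fork, had 150.4, 157 and 161 CPM in cycling and 73.8, 58.7 and 47.7 CPM in non-cycling sums (1.40).

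In DNA repair and damage checkpoint genes 37 of 39 tested members (40 listed) were higher, median 2.32. Topbp1, Atad2, Usp1 and Parp1 had log2 fold changes of 1.89, 1.87, 1.46 and 1.10. Topbp1, a scaffold of replication initiation and of checkpoint signalling, had 113, 126 and 135 CPM in cycling and 30.9, 33.8 and 36.6 CPM in non-cycling sums. The checkpoint kinase gene Atr did not pass the test (12.8, 15.1 and 15.5 CPM in cycling and 10.9, 7.46 and 12.7 CPM in non-cycling sums), nor did Atrip, its partner (0.33 ± 0.27 on the log2 scale). Nucleotide synthesis genes were higher in 27 of 30. Thymidine kinase Tk1 had 400.1, 351 and 359 CPM in the cycling sums, against 114, 93.4 and 102 CPM in the non-cycling sums (log2 fold change 1.84 ± 0.08, adjusted p = 5.81e-10). The GTP enzyme Impdh2 and the nucleoside diphosphate kinases Nme1 and Nme2 had log2 fold changes of 0.74, 0.79 and 0.38. The purine synthesis enzyme Paics was an exception that did not pass, at 696, 496 and 545 CPM in cycling and 832, 566 and 577 CPM in non-cycling sums (-0.18 ± 0.07 on the log2 scale), and Adss did not pass either (0.16).

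Chromatin proteins of the condensin, cohesin and HMG list were higher in 35 of 38. The histone variant H2afz had 1436, 1352 and 1466 CPM in cycling and 362, 368 and 453 CPM in non-cycling sums (log2 fold change 1.85 ± 0.07, adjusted p = 2.46e-10). Hmgb1, Hmgn2 and Hmgn1 had log2 fold changes of 1.03, 1.29 and 0.36. The linker histone H1f0, known from non-dividing cells, did not pass, at 269, 272 and 226 CPM in cycling and 333, 288 and 239 CPM in non-cycling sums, nor did Supt16 (0.38).

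In the intermediate wells replication and spindle genes stood at different levels. These wells were chosen by a middle score of mitotic genes, and no gene of the replication list was in the score. The low level of spindle genes in them therefore carries the choice of wells. Replication genes summed, without TMM correction, to 4254 ± 262 CPM in cycling, 3180.5 ± 313 CPM in intermediate and 1393 ± 72.8 CPM in non-cycling sums (SD, n = 3). Spindle genes summed to 2978 ± 349 CPM in cycling, 514 ± 25.9 CPM in intermediate and 298 ± 8.23 CPM in non-cycling sums (SD, n = 3). In spindle genes the mean of the intermediate sums lay nearer to the non-cycling sums. In replication genes it lay nearer to the cycling sums, as did replicates 1 and 3, whereas in replicate 2 the 2876 CPM of the intermediate sum lay nearer to the 1424 CPM of the non-cycling than to the 4530.1 CPM of the cycling sum. The median single well differed from the sums: per 10000 counts it held 34.2, 39.7 and 39.3 counts of replication genes in the cycling class, 16.1, 15.6 and 17.5 in the intermediate class and 11.2, 11.1 and 10.2 in the non-cycling class, so the median intermediate well lay nearer to the non-cycling one in every plate. Well by well, 61 of 205 intermediate wells (29.8%) were above the median cycling well in replication genes (38.2 per 10000 counts), and 4 of 230 non-cycling wells (1.74%) were. Mitotic, spindle and centromere genes other than the score genes were counted in the same way. For these, 0 of 205 intermediate and 0 of 230 non-cycling wells exceeded the median cycling well (64.6 per 10000 counts). Counting error alone, with wells pooled over the plates, allows shares of up to 1.46% and 1.3%. The score is made of mitotic genes and was capped in both classes, so this outcome carries the choice of wells. Whether these intermediate wells were in S phase was not tested.

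**Figure D4:**
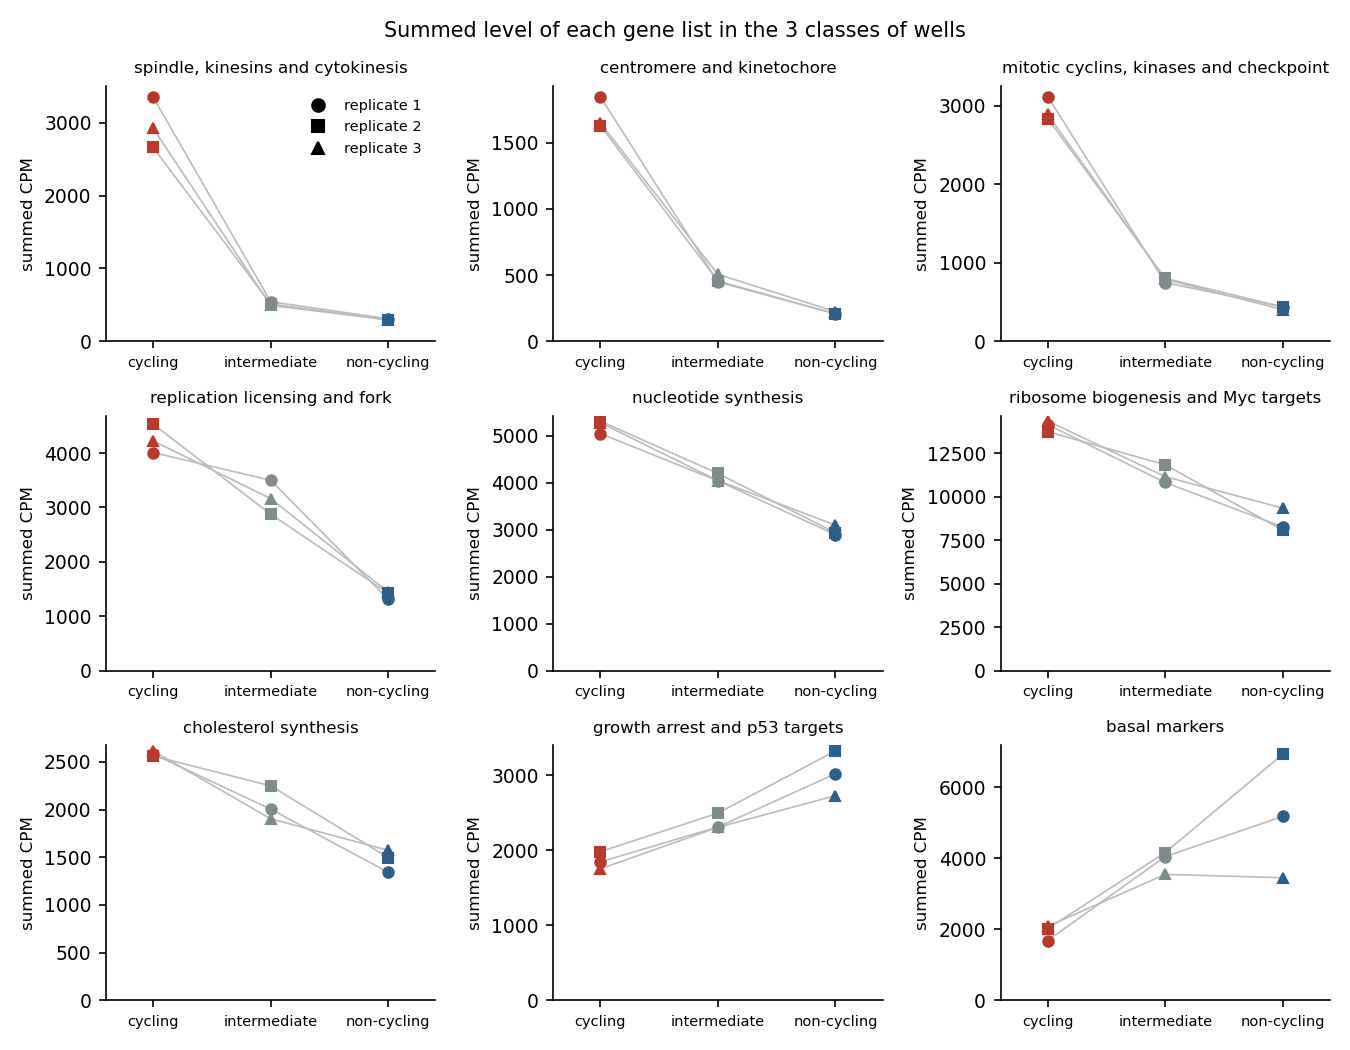
Summed CPM (vertical axis, from 0) of 9 gene lists in the cycling, intermediate and non-cycling sums (horizontal axis) of the 3 BME plates, with a symbol for each plate and lines joining the sums of a plate. In the intermediate sums replication genes have a mean of 3180 CPM, nearer to the cycling mean except in replicate 2, and spindle genes one of 514 CPM, nearer to the non-cycling mean.

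The factors that switch these genes on were split. In the list of E2F, B-Myb and FoxM1 factors with their partners 14 of 22 tested members were higher and 1 was lower (23 listed). Mybl2, the B-Myb gene, had 37.5, 39.8 and 39.9 CPM in cycling and 1.14, 1.49 and 0 CPM in non-cycling sums (log2 fold change 5.53 ± 0.36, adjusted p = 3.28e-08), and Foxm1 had 47.8, 45.9 and 40.9 CPM in cycling and 5.72, 2.98 and 1.23 CPM in non-cycling sums (3.84). The non-cycling sums held only 5 counts of Mybl2 and 19 of Foxm1, so the size of these ratios rests on few molecules. E2f1 had 37.7, 42.4 and 31.4 CPM in cycling and 16.6, 15.4 and 13.2 CPM in non-cycling sums (1.30). Lower was Rb1, the retinoblastoma gene whose product restrains E2F, at 7.29, 10.4 and 9.71 CPM in cycling and 14.9, 14.9 and 17.7 CPM in non-cycling sums (log2 fold change -0.80 ± 0.23, adjusted p = 0.0117). Mybl2, Foxm1, E2f1 and Rb1 were picked after their values were seen. Rbl1, the pocket protein p107, and E2f4, a factor of the repressive complexes, had log2 fold changes of 1.14 and 0.74. The NF-Y subunits Nfyb and Nfyc had 0.46 and 0.46, whereas E2f3 (0.21) and E2f5 (0.36) did not pass. DESeq2 called 9 of these genes higher and 0 lower, and per ERCC count, without replicate 1 and without replicate 3 there were 0 lower. Among basal wells 5 of 15 were higher.

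G1 cyclins, cyclin-dependent kinases and their inhibitors changed less, with 12 of 19 tested genes higher and 1 lower (23 listed) and a median of 0.37. Without the plate as a block 7 were higher and 0 lower, and among basal wells 6 of 14 were higher. Cdk4, the kinase of D cyclins, had 587, 449.9 and 527 CPM in cycling and 465, 381 and 397 CPM in non-cycling sums (log2 fold change 0.33 ± 0.07, adjusted p = 0.00205), with values that overlapped between plates. Cyclin D1, Ccnd1, had 367, 380.5 and 456 CPM in cycling and 265, 379 and 369.9 CPM in non-cycling sums (0.26) and lost the call in non-basal wells, at -0.02. The proto-oncogene Myc had 75.7, 54.1 and 59.3 CPM in cycling and 68.7, 32.8 and 45.6 CPM in non-cycling sums (0.39). Its plates overlapped, it was at -0.46 among basal wells, and its call was not kept in 11 of 23 alternatives. Ccne1, the cyclin of the G1 to S transition, had 44.3, 45.4 and 43.4 CPM in cycling and 10.9, 10.9 and 17.3 CPM in non-cycling sums (1.74), and the inhibitor Cdkn2c, itself an E2F target, 46.4, 29.4 and 27.9 CPM in cycling and 7.44, 5.47 and 7.81 CPM in non-cycling sums (2.27), both picked after their values were seen. The p53 target and inhibitor Cdkn1a, known as p21, was the lower member, at 139, 61.2 and 85.3 CPM in cycling and 192, 92.9 and 129 CPM in non-cycling sums (log2 fold change -0.55 ± 0.09, adjusted p = 0.000187). It was lower within each plate although the plates overlapped, among basal wells its value was 0.21 and did not pass, and per ERCC count it was at 0.01. Cdk7 (-0.01) and Ccnh (0.31), subunits of the CDK-activating kinase, did not pass.

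Biosynthetic genes were higher in cycling cells. Ribosome biogenesis and Myc target genes were higher in 40 of 46, median 0.76. Ran, the GTPase of nuclear transport and spindle assembly, had 702, 1011 and 1034 CPM in the cycling sums, against 285, 401 and 443 CPM in the non-cycling sums (log2 fold change 1.29 ± 0.07, adjusted p = 5e-09). The translation factor Eif5a had 2401, 1726 and 1743 CPM in cycling and 1366, 983 and 1129 CPM in non-cycling sums (0.75), and the nucleolar chaperone Npm1 3497, 2698 and 3315 CPM in cycling and 2425, 1942 and 2548 CPM in non-cycling sums (0.46). Hspe1, a mitochondrial chaperone, had 0.55, and Polr1c (0.06) and Pes1 (0.27) did not pass. Among basal wells alone 18 of 43 were higher and the median was 0.47, and Npm1 (0.09) and Hspe1 (0.19) did not pass there.

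Cholesterol synthesis genes were higher in 22 of 23 tested (25 listed), median 0.71. Hmgcs1, which makes the substrate of the pathway's rate-limiting enzyme, had 308, 273 and 286 CPM in the cycling sums, against 128, 144 and 135 CPM in the non-cycling sums (log2 fold change 1.09 ± 0.09, adjusted p = 2.4e-07). Idi1, Fdps and Fdft1 had log2 fold changes of 1.38, 0.88 and 0.69, and Tm7sf2 did not pass (0.48). The summed list stood at 2586 ± 26.1 CPM in cycling, 2052 ± 178 CPM in intermediate and 1470.0 ± 118 CPM in non-cycling sums (SD, n = 3). In proteasome subunits 28 of 31 were higher, with a small median of 0.42. Psma5, Psmb7, Psma7 and Psmb4 had 0.49, 0.41, 0.34 and 0.28 on the log2 scale, while Psmb1 (-0.04) and Psmd8 (0.01) did not pass. Of the 31 subunits 16 were higher without the plate as a block and 14 among basal wells, and for 18 the 3 cycling sums lay above all non-cycling sums.

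Nuclear genes of oxidative phosphorylation were mixed, with 30 higher and 4 lower of 74 tested (75 listed) and a median of 0.17. Of all genes tested 21.9% were higher and 20.4% lower in the same fit. Without the plate as a block 11 of 74 were higher, against 14.4% of all genes. Among basal wells 11 of 74 were higher, against 11.3%. Without replicate 1 the count was 19, against 15.5% of all genes, and without replicate 2 it was 17. Per ERCC count 71 were higher and 0 lower, against 57.9% and 3.77% of all genes. Cycs, cytochrome c, had 741, 635 and 689 CPM in cycling and 317, 293 and 334 CPM in non-cycling sums (log2 fold change 1.13 ± 0.07, adjusted p = 2.72e-08), and the ATP synthase genes Atp5b, Atp5g3 and Atp5a1 had 0.47, 0.43 and 0.19 on the log2 scale. Atp5h (0.03) and Cox8a (0.06) did not pass. Cytosolic ribosomal protein genes moved with the bulk of the transcriptome. Of 77 tested (82 listed) 6 were higher and 6 lower, and the list summed to 144273 ± 21891 CPM in cycling, 146283 ± 19149.9 CPM in intermediate and 148680.0 ± 16732 CPM in non-cycling sums (SD, n = 3). Their median was -0.06 by CPM and 0.50 per ERCC count, where the median gene was at 0.54. Rps2 and Rpsa had 0.15 and 0.15, Rpl17 and Rpl23 -0.19 and -0.15, and Rpl4 (-0.06) and Rpl41 (0.08) did not pass. Without the plate as a block 1 ribosomal protein gene was higher and 0 were lower, and reads of these genes can be split with their processed copies.

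Many growth arrest genes were lower in cycling cells by CPM, and fewer were per ERCC count. Of 32 tested (35 listed) 18 were lower and 1 was higher in cycling cells, with a median of -0.49 by CPM and 0.08 per ERCC count, where the median gene was at 0.54 and 11 were lower and 9 higher. Trp53inp1, a stress-induced p53 target, had 17.4, 17.2 and 15.5 CPM in the cycling sums, against 71, 68.1 and 59.2 CPM in the non-cycling sums (log2 fold change -1.98 ± 0.13, adjusted p = 3.25e-08). The antiproliferative gene Btg1 had 209.9, 246 and 183 CPM in cycling and 462, 444 and 403 CPM in non-cycling sums (log2 fold change -1.04 ± 0.08, adjusted p = 1.88e-07). Gas6, a ligand of the TAM receptors named for its growth-arrest expression, had 117, 107 and 92.8 CPM in cycling and 341, 267 and 245 CPM in non-cycling sums (-1.42), and Gas1 177, 157 and 136 CPM in cycling and 365, 385 and 257 CPM in non-cycling sums (-1.08). Txnip, an inhibitor of glucose uptake picked after its values were seen, had 25.3, 24 and 15.3 CPM in cycling and 68.1, 57.7 and 44 CPM in non-cycling sums (-1.40). These 5 genes were apart in all plates and stayed lower among basal and among non-basal wells alone. The p53 target Ccng1 overlapped between plates (-0.27), and Bax (0.15) and Klf6 (-0.08) did not pass.

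Among the 15 genes of at least 50 CPM with the lowest ratios, Fbxo32, a FoxO-driven ubiquitin ligase of muscle atrophy, had 20.4, 25.2 and 28.7 CPM in cycling and 110.5, 196 and 94.9 CPM in non-cycling sums (log2 fold change -2.37 ± 0.17, adjusted p = 9.7e-08). Ypel3, a growth-suppressing p53 target, had 27.1, 18.1 and 19.8 CPM in cycling and 103, 64.1 and 77.3 CPM in non-cycling sums (-1.91), and Dtx3 42.1, 31.1 and 32.4 CPM in cycling and 131, 94.4 and 89.2 CPM in non-cycling sums (-1.57). Steap4, a metalloreductase, had 107, 119 and 87.4 CPM in cycling and 366, 282 and 261 CPM in non-cycling sums (-1.53), and the galectin Lgals3 55.1, 57.2 and 41.5 CPM in cycling and 161, 148 and 193 CPM in non-cycling sums (-1.71). Each was also lower among non-basal wells alone, at -1.55, -2.01, -1.68, -1.73 and -1.79 on the log2 scale.

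Basal genes were lower in cycling cells, and the share of basal wells moved with the classes in replicates 1 and 2. Krt5, a basal keratin, had 267, 219.8 and 232 CPM in the cycling sums, against 909, 1034 and 282 CPM in the non-cycling sums (log2 fold change -1.46 ± 0.24, adjusted p = 0.000236), with a difference in replicate 3 that was much smaller than in the other plates. Its partner Krt14 had 175, 195 and 256 CPM in cycling and 584, 765 and 284 CPM in non-cycling sums (-1.30). Of 19 basal markers tested (24 listed) 18 were lower and 0 higher, median -1.27, and for 13 the 3 cycling sums lay below all non-cycling sums. Per ERCC count the median was -0.70 and 12 were lower and 0 higher. When wells with Krt5 and Krt14 of at least 5 per 10000 counts were counted as basal, 19.1%, 17.7% and 28.9% of the cycling wells were basal, against 36.7%, 54.2% and 25.3% of the non-cycling wells. Replicate 3 ran the other way from replicates 1 and 2. Read the other way round, 33.8%, 23.8% and 48.6% of basal wells were cycling, against 55.3%, 53.1% and 44.6% of non-basal wells.

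Within each lineage the basal genes still differed, to a smaller degree. Among basal wells alone 14 of 18 tested were lower and the list had a median of -0.68, and among non-basal wells alone 13 of 19 were lower and the median was also -0.68. These lineages were set with Krt5 and Krt14, so values of these 2 keratins inside them carry the selection: Krt5 was at -0.72 in basal and at 0.09 in non-basal wells. The basal transcription factor Trp63, picked after its values were seen, had 36.6, 56.7 and 55.6 CPM in cycling and 108, 153 and 76 CPM in non-cycling sums (log2 fold change -1.14 ± 0.16, adjusted p = 7.46e-05), with -0.72 among basal and -0.64 among non-basal wells. Igfbp5, a binding protein of insulin-like growth factors, had 291, 423 and 404 CPM in the cycling sums, against 1751, 1862 and 1192 CPM in the non-cycling sums (log2 fold change -2.09 ± 0.13, adjusted p = 2.6e-08), with -1.71 and -1.76 in basal and non-basal wells. The matrix protein Sparc had 142, 241 and 251 CPM in cycling and 510.5, 829 and 356 CPM in non-cycling sums (-1.38), and Krt15 did not pass (-0.95).

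The lowest ratio of all named genes was that of Krt6a, a keratin of stressed and activated epithelium, with 4.05, 5.18 and 2.07 CPM in the cycling sums, against 42.9, 103 and 46 CPM in the non-cycling sums (log2 fold change -4.05 ± 0.21, adjusted p = 2.81e-09). Among basal wells it was at -3.55, and among non-basal wells it was too low to be tested. Ctgf, a Yap and TGF-beta target, had 7.9, 8 and 11.8 CPM in cycling and 16.6, 99.4 and 73.2 CPM in non-cycling sums (-2.65), and its non-cycling value in replicate 1 was far below the other plates. Postn, a matricellular protein, had 13, 45.9 and 18.4 CPM in cycling and 114, 152 and 139.7 CPM in non-cycling sums (-2.50). Thbs1, which binds and activates TGF-beta, had 52, 44.9 and 46.7 CPM in cycling and 264, 201 and 148 CPM in non-cycling sums (log2 fold change -2.06 ± 0.12, adjusted p = 8e-09), at -1.86 among basal and -1.86 among non-basal wells. Scrg1, Smoc1 and Calml3 had log2 fold changes of -2.20, -1.93 and -1.75.

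Luminal markers changed little. Of 17 tested (24 listed) 5 were lower and 1 was higher, with a median of -0.15 by CPM and 0.43 per ERCC count, where 0 were lower and 11 higher. Over all genes tested 20.4% were lower and 21.9% higher by CPM, and 3.77% and 57.9% per ERCC count. Krt8, the luminal keratin, had 359, 306 and 300.2 CPM in cycling and 386, 331 and 375 CPM in non-cycling sums and did not pass (adjusted p = 0.0693). Epcam, the adhesion molecule of the whole epithelium, had 323, 378 and 313 CPM in cycling and 303, 309 and 261 CPM in non-cycling sums (log2 fold change 0.22 ± 0.08, adjusted p = 0.0335). The call of Epcam was lost in 12 of 23 alternatives. Ehf and Cd24a had -0.48 and -0.32, the overlapping Cited1 -0.83, and Cd14 did not pass (0.25). Without replicate 1, and likewise without the plate as a block, 1 luminal marker was lower.

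Secreted products of the luminal epithelium were lower in 8 of 11 tested (21 listed) and higher in 1, median -0.61 by CPM and -0.04 per ERCC count, where 4 were lower and 4 higher. The shares of all genes were 20.4% lower and 21.9% higher by CPM, and 3.77% and 57.9% per ERCC count. Mgp, matrix Gla protein, had 281, 174 and 119 CPM in cycling and 699.9, 262 and 855 CPM in non-cycling sums (log2 fold change -1.59 ± 0.27, adjusted p = 0.00029), with a non-cycling value in replicate 2 inside the cycling range. Clusterin, Clu, had 471, 392 and 332 CPM in cycling and 937, 432 and 870.0 CPM in non-cycling sums (-0.85), and transferrin, Trf, 3616, 4627 and 4059 CPM in cycling and 5377, 4703 and 7588 CPM in non-cycling sums (-0.50). Lipocalin Lcn2 had 9806, 6314 and 6690.5 CPM in cycling and 11837, 6086 and 9421 CPM in non-cycling sums (-0.24). In replicate 2 Lcn2 ran the other way, and it was at -0.56 among non-basal wells and, without passing, at 0.25 among basal wells. Wfdc2 (-0.17) and Csn1s1 (0.26) did not pass. Of these genes 5 were lower without the plate as a block. The milk protein gene Csn3 alone was higher, with 17.4, 15.5 and 17.6 CPM in cycling and 2.86, 1.49 and 2.05 CPM in non-cycling sums (log2 fold change 2.98 ± 0.32, adjusted p = 4.7e-06).

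**Figure D5:**
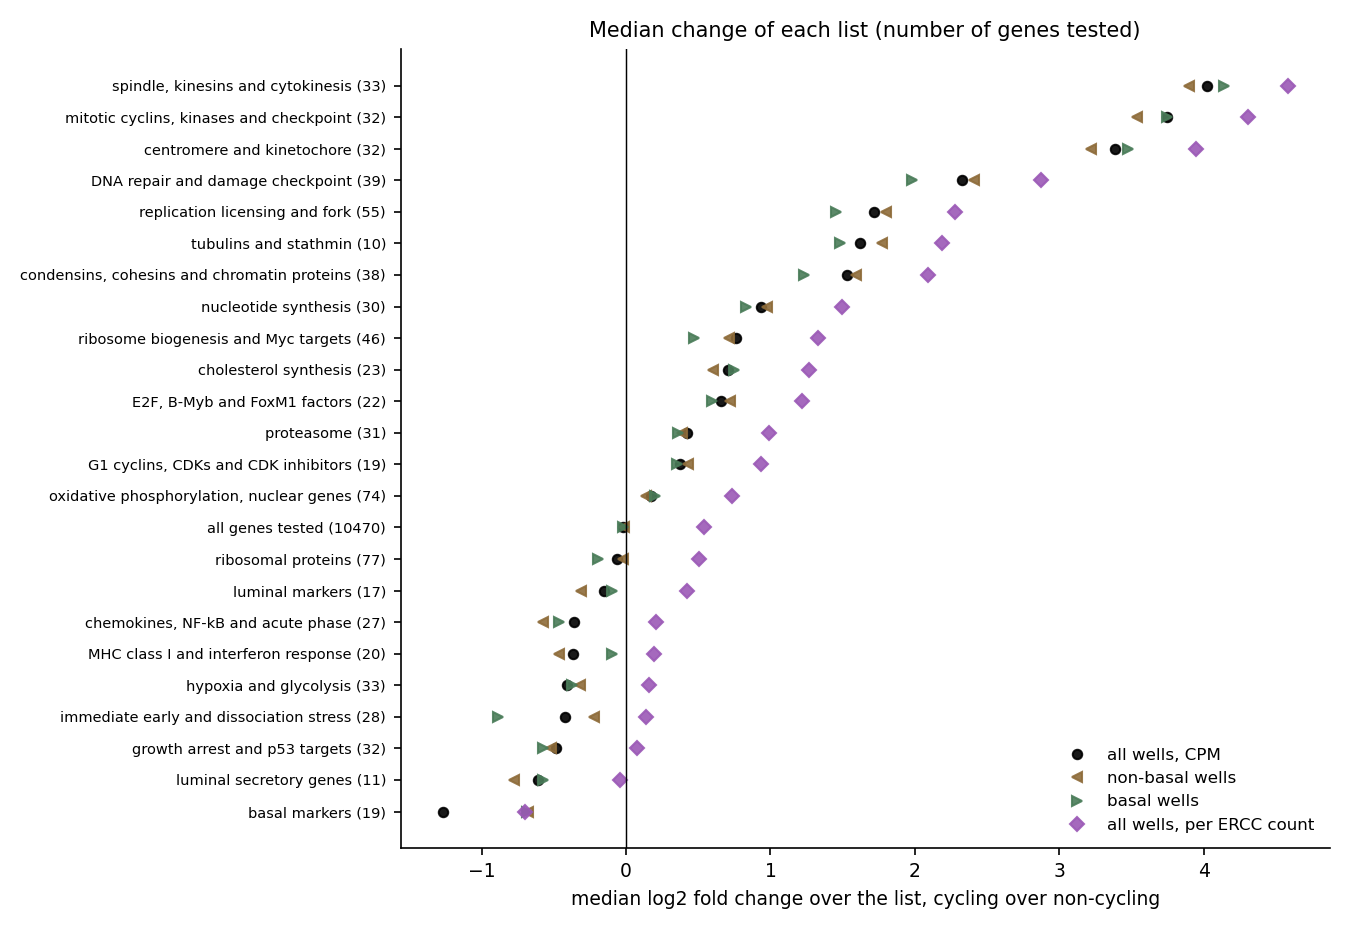
Median log2 fold change of each list, cycling over non-cycling (horizontal axis), over the genes tested (number in brackets), for all wells by CPM (circles), non-basal wells (left triangles), basal wells (right triangles) and all wells scaled by ERCC counts (diamonds). Mitotic and replication lists lie to the right under every setting, whereas the growth arrest, hypoxia, chemokine, stress, MHC, luminal marker and ribosomal protein lists lie left of 0 by CPM and right of 0 per ERCC count.

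Genes of hypoxia and glycolysis were more often lower than higher in cycling cells by CPM. Of 33 tested (37 listed) 18 were lower and 1 was higher, with a median of -0.41 by CPM and 0.16 per ERCC count, where 6 were lower and 12 higher. Across all genes 20.4% were lower and 21.9% higher by CPM, and 3.77% and 57.9% per ERCC count. Vegfa, the endothelial growth factor induced by hypoxia and picked after its values were seen, had 110.3, 109.9 and 94.2 CPM in the cycling sums, against 288, 339 and 264 CPM in the non-cycling sums (log2 fold change -1.50 ± 0.08, adjusted p = 6.17e-09). The oxygen-sensing hydroxylase Egln3 had 209, 175 and 153 CPM in cycling and 280.4, 296 and 308 CPM in non-cycling sums (-0.73). Aldoa, Gpi1 and Ero1l had -0.51, -0.41 and -0.48 on the log2 scale. The abundant glycolytic genes Ldha, Pkm and Gapdh did not pass. Ldha had 2175, 1719.6 and 1941 CPM in cycling and 2081, 1884 and 1914 CPM in non-cycling sums (-0.02 ± 0.06), and Pkm and Gapdh -0.04 ± 0.07 and -0.02 ± 0.06.

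Among inflammatory and stress genes more were lower than higher by CPM. Of 27 chemokine, NF-kB and acute phase genes tested (36 listed) 12 were lower and 4 higher, median -0.36 by CPM and 0.21 per ERCC count, where 2 were lower and 11 higher. Among all genes 20.4% were lower and 21.9% higher by CPM, and 3.77% and 57.9% per ERCC count. Cxcl5, a neutrophil-attracting chemokine, had 1352, 1877 and 1090.5 CPM in cycling and 2767, 1882 and 3380.3 CPM in non-cycling sums (log2 fold change -0.89 ± 0.19, adjusted p = 0.00205), and in replicate 2 the classes were nearly equal. The NF-kB inhibitor Nfkbia had 153, 228 and 179 CPM in cycling and 302, 338 and 291 CPM in non-cycling sums (-0.75), and Hp and Cxcl1 had -0.51 and -0.31. Sod2 did not pass (0.15). Without replicate 1, 6 genes of this list were lower, against 11.8% of all genes.

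Of 28 immediate early and dissociation stress genes tested (33 listed) 11 were lower and 2 higher, median -0.42 by CPM and 0.14 per ERCC count, where 3 were lower and 11 higher. By CPM 20.4% of all genes were lower and 21.9% higher, and per ERCC count 3.77% and 57.9%. Junb, an AP-1 subunit, had 141, 183 and 138 CPM in cycling and 237, 332 and 188 CPM in non-cycling sums (-0.68), Zfp36l1 -0.44, and the small chaperone Hspb1 246, 197 and 206 CPM in cycling and 406, 354 and 281 CPM in non-cycling sums (-0.67). Dnaja1, an HSP40 chaperone, was higher, at 342, 311 and 395 CPM in cycling and 234, 206 and 272 CPM in non-cycling sums (0.56), and Dusp6 (-0.11) and Ier3 (0.15) did not pass. Among non-basal wells 7 of 26 were lower and 4 higher, with a median of -0.22, where 18.5% of all genes were lower and 20.4% higher. Among basal wells 14 of 22 were lower and 1 higher, with a median of -0.88, where 9.46% of all genes were lower and 11.3% higher. These genes respond to tissue dissociation, and their part in the comparison was not tested.

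In antigen presentation and interferon genes 8 of 20 tested (32 listed) were lower and 1 was higher, median -0.36 by CPM and 0.19 per ERCC count, where 0 were lower and 6 higher. All genes tested had 20.4% lower and 21.9% higher by CPM, and 3.77% and 57.9% per ERCC count. B2m, the light chain of MHC class I, had 165, 155 and 165 CPM in the cycling sums, against 277, 259 and 257 CPM in the non-cycling sums (log2 fold change -0.71 ± 0.08, adjusted p = 5.66e-06). The peptide loading factor Tapbp had 155, 118 and 109.5 CPM in cycling and 263, 185 and 162 CPM in non-cycling sums (-0.66), and H2-D1 and Ifitm3 had -0.35 and -0.31. The heavy chain H2-K1 did not pass, at 517, 400.0 and 389.9 CPM in cycling and 486, 352 and 388 CPM in non-cycling sums (0.09 ± 0.07), nor did Ifi35 (-0.25). The count of lower genes was 4 without the plate as a block, against 12.3% of all genes, and 4 without replicate 1, against 11.8%. Among basal wells 0 of the 10 genes that could be tested passed in either direction.

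Markers of other cell types were nearly absent. Of 27 markers of fibroblasts, immune cells, endothelium and fat 13 had any count in these sums, and all of them together held between 31 and 58.8 CPM in cycling and between 42.7 and 76.7 CPM in non-cycling sums. Ptprc, Csf1r, Cd74, Col3a1 and Kdr were at 0 counts in both. Other markers of the same cell types had counts: Col1a1 71 in the cycling and 45 in the non-cycling sums, Pecam1 36 and 21, and Cd68 29 and 14. The fibroblast proteoglycan gene Dcn was lower, with 1.21, 0.941 and 0.413 CPM in cycling and 6.87, 4.97 and 18.9 CPM in non-cycling sums (log2 fold change -3.48 ± 0.51, adjusted p = 9.39e-05), or 12 counts against 68 counts over the plates. Pdgfra (-0.46, 266 counts in cycling and 157 in non-cycling sums) and S100a8 (0.35, 208 and 69 counts) did not pass.

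The same contrast was made in Collagen I, with 43 of 232 and 45 of 213 wells cycling and 146 and 130 non-cycling in replicates 1 and 3. The cycling effect differed between the matrices for 70 of 10533 genes tested (0.665%) in edgeR's interaction test with the plate as a block, 24 with a higher and 46 with a lower value in Collagen I. Without the block 0 and 1 genes passed. The counts fell to 2 and 5 without Collagen I replicate 1, to 1 and 4 without Collagen I replicate 3, and to 11 and 8 without BME replicate 1. As with the shares, the matrix and the set of libraries cannot be told apart, and the Collagen I plates were shallower.

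Csn3 had 536 and 1032 CPM in the cycling sums, against 725 and 1076 CPM in the non-cycling sums in Collagen I, and 17.4, 15.7 and 17.7 CPM in the cycling sums, against 2.84, 1.49 and 2.04 CPM in the non-cycling sums in BME, a difference of -3.23 ± 0.31 in log2 fold change (adjusted p = 9.16e-06), which passed in the 9 alternatives run. In Collagen I its level was high and the classes differed by -0.24, whereas in BME its 13 counts in the non-cycling sums were few. Igfbp5 had 1663 and 1368 CPM in the cycling sums, against 2166 and 1812 CPM in the non-cycling sums in Collagen I, where its log2 fold change was -0.39, against -2.09 in BME (difference 1.69 ± 0.19, adjusted p = 0.000103). Gapdh had 815 and 809.6 CPM in the cycling sums, against 1510.5 and 1374 CPM in the non-cycling sums in Collagen I, a log2 fold change of -0.83, whereas the BME sums had the -0.02 given above (difference -0.83 ± 0.12, adjusted p = 0.00126). Both calls were lost without the block and without Collagen I replicate 1.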

How the data were processed

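Each plate was deposited by the authors as a table of estimated counts per gene and well: UMI numbers of CEL-Seq2 libraries mapped with BWA (mm10, per the labels) and corrected for UMI saturation. The correction fits 6-base UMIs, although the labels give 4. Values were rounded to whole counts after summing, and 0 columns were left unmapped. The members and gene lists were chosen with earlier results of these data known.

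ERCC rows were dropped, and the plates held 9077557, 9335848 and 10911711 counts in BME and 1631975 and 1091407 counts in Collagen I before wells were kept. The sums of a plate were compared with edgeR 4.0.16 (R 4.3.3) by quasi-likelihood tests with TMM scaling, filterByExpr, the plate as a block and Benjamini-Hochberg adjustment over all genes tested except the 6 score genes; standard errors are the fold change over the root of F. A plate's cycling and non-cycling wells share a plate, and their deviations from the class means correlated at 0.72, 0.439 and 0.299 over 5783 genes. For well medians an exact permutation test over plates was used.

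Named genes were the 6 score genes, the 15 largest changes in each direction among genes past the test with the same direction in 3 plates and at least 50 CPM in a class, up to 4 called and 2 uncalled members of each list by mean CPM, and 5 genes of the difference between matrices. Promoter windows came from RefSeq tables (GRCm38.p6), matched by symbol. Alternatives were RLE, library size and ERCC scaling, DESeq2 1.42.0, limma-voom 3.58.1, no low-count filter, no block, each plate left out, other well, score and lineage limits, thinning and splitting of counts. Doublets were not called. In these 5 plates intervals cover counting error only. Scripts were tested on simulated data.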

Additional observations from a re-analysis of the deposited data

Results flagged for a closer look

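For 5 genes the difference between cycling and non-cycling cells in Collagen I was not the same as in BME by edgeR's interaction test, and these were the 5 with the smallest adjusted p. Csn3, a milk protein gene, differed by -3.229 on the log2 scale, with an effect of -0.24 in Collagen I and of 2.98 in BME. Ier3, an immediate early gene, differed by -1.107, with -0.94 in Collagen I and 0.15 in BME. Gapdh, a glycolytic enzyme with many processed copies, differed by -0.826, with -0.83 in Collagen I and -0.02 in BME. Igfbp5 differed by 1.686, with -0.39 in Collagen I and -2.09 in BME, and the matrix proteoglycan gene Prelp by 1.758, with 0.63 in Collagen I and -1.15 in BME. Without the plate as a block the calls of Ier3, Gapdh, Igfbp5 and Prelp were lost. Those of Igfbp5 and Gapdh were also lost without Collagen I replicate 1, and that of Prelp without Collagen I replicate 3.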

How the results depend on the processing

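The count of genes higher in cycling cells was 2297 and that of genes lower 2136. These counts moved by over 1.5 times per ERCC count (6061 and 395), with DESeq2 (1338 and 978), without the plate as a block that carries the pairing (1505 and 1290), in wells thinned to 10000 counts (1403 and 1348), at scores of at least 10 against 0 (614 and 480) and in basal wells alone (858 and 720). With 1 plate left out, 1630 to 2184 genes were higher and 1245 to 1877 lower. The 1245 lower genes, without replicate 1, were also a move of over 1.5 times. Genes called in both kept their direction, except 90 genes called lower by CPM and higher per ERCC count, 1 gene at the stricter scores and 1 in basal wells. For the difference between matrices, 24 genes were higher and 46 lower. DESeq2 called 17 and 43, the fit with no filter 40 and 185, and the fit without the block 0 and 1. With 1 plate left out 1 to 43 were higher and 4 to 96 lower. Of 48 list counts, 13 moved without the block, 21 per ERCC count, 23 at the stricter scores and 20 in basal wells.

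Of 168 named genes 51 changed sign under at least 1 alternative, in 104 values. In 42 of these the gene passed the threshold in at least one of the compared fits, and in 62 it passed in neither. The 42 were as follows. Per ERCC count 28 turned: H1f0 0.41, Paics 0.39, Cdkn1a 0.010, Cdk7 0.55, Ccng1 0.30, Klf6 0.48, Rpl17 0.38, Rpl23 0.41, Rpl4 0.50, Psmb1 0.53, Cd24a 0.25, Ehf 0.090, Krt8 0.38, Lcn2 0.33, Trf 0.066, Wfdc2 0.40, Cxcl1 0.26, Hp 0.060, Aldoa 0.055, Gpi1 0.16, Ero1l 0.090, Pkm 0.53, Ldha 0.55, Zfp36l1 0.13, Dusp6 0.46, Ifitm3 0.25, H2-D1 0.22 and Gapdh 0.55. In non-basal wells these were Ccnd1 (-0.016) and Krt5 (0.085). In basal wells these were Cdkn1a (0.21), Myc (-0.46), Rps2 (-0.034), Rpsa (-0.071), Lcn2 (0.25), Csn1s1 (-2.57), Ier3 (-1.02), Ifitm3 (0.068) and H2-D1 (0.052). The stricter scores turned Ccng1 (0.24) and Cxcl1 (0.67), and the score from 3 genes turned Cxcl1 (0.039). The cause was not tested. Without the block 26 named genes fell short of the threshold. Depth limits genes with few counts in the non-cycling sums, whose ratios rest on under 20 molecules.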
